A study of Mus musculus with 9 samples.

Results

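The peaks described here are the open-chromatin regions that the deposited ATAC-seq table labels exactly "Intron 1", which gave 9621 of its 115727 peaks (8.31%). They carry the names of 2776 genes and 2815 transcripts. ATAC-seq marks accessible DNA by letting a transposase insert sequencing adaptors wherever chromatin is open. The cells were naive CD4+ T cells, helper T cells at rest before any contact with antigen, isolated from C57BL/6 mice with a magnetic kit and not treated. Of each genotype, Stat6 KO, Il21e KO and WT, 3 libraries were made; the age of the mice is not given. Stat6 relays the signals of IL-4 and IL-13 to the nucleus. The labels name the other allele both Il21e KO and IL21KO, and for neither knockout do they say which DNA is missing, nor whether the libraries of a genotype came from separate animals. The p-values below therefore measure the spread between these libraries, which may be technical.

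Introns are transcribed and then spliced out, and the first one begins just downstream of the promoter. In many genes it is also the longest and holds enhancers, the distal elements that transcription factors bind to raise transcription of a gene. In T cells several lineage genes carry such elements in their early introns. Open chromatin at an element shows that it is accessible, not that it is active. In cell pools, fewer cells with an open element and less signal per cell cannot be told apart.

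The first-intron peaks were short, with a median length of 387 bases and a range of 58 to 2741. They lay a median of 13748 bases from the transcript's start, with quartiles at 5966 and 31671 bases and a range of 119 to 703047. Of the 9621 peaks, 564 lay within 1 kb of a listed start. The peaks did not overlap one another, but 1374 (14.3%) shared an edge with another peak of the table, against 10.6% of all peaks. Counted as unbroken runs, the first-intron peaks formed 8959 stretches.

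The label covered only some first introns. Of 2815 transcripts with an Intron 1 peak and 2993 with a peak labelled 5' UTR Exon, only 8 held both. The 10459 peaks of that UTR class lay a median of 15163 bases from the start, and 79.0% were more than 5 kb away, as were 78.5% of the Intron 1 peaks. The forkhead factor gene Foxp1 had 103 peaks under the UTR label, the farthest 355853 bases from its start, and 0 under Intron 1. A gene listed with no Intron 1 peak may thus have peaks between its start and its coding exons that the table files elsewhere. All counts below follow the table's label. Where the UTR class was added in, chosen after seeing the data, 3178 genes held 2 or more such peaks, against 1545 by the label alone.

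The promoters of 2 genes that recur below are shown because their strongest first-intron peaks lie outside this window: Bcl11b, a transcription factor that fixes T cell identity, and Il7r, which encodes the alpha chain of the IL-7 receptor and so supports survival of resting T cells. Each runs from 250 bases before to 50 bases after the start, in RefSeq's GRCm38.p6 annotation, and capitals mark GGAAG and TGTGGT on either strand. The Bcl11b window is chr12:108003365-108003664, minus strand, and the Il7r window is chr15:9529827-9530126, minus strand.

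Bcl11b: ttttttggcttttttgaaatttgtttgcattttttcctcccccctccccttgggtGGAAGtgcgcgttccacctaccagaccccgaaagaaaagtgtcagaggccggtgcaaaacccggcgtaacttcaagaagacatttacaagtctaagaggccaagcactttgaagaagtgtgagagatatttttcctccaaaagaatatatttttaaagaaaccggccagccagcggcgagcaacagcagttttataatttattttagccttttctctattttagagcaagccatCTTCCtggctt
Il7r: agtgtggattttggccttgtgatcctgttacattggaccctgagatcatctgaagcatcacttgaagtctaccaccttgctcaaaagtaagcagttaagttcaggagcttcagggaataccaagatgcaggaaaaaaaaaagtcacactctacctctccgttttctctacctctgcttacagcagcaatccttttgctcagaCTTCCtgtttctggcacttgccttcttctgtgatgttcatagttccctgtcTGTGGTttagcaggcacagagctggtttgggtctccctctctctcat

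GGAAG is the core that ETS family factors bind and TGTGGT the core that RUNX family factors bind. The Bcl11b window held GGAAG 2 times and the Il7r window held it 1 time, with 1 TGTGGT, and no matches overlapped. Of all 32851 promoter windows in the table of promoters, 71.4% held GGAAG and 16.8% held TGTGGT, so neither match sets these windows apart. Both windows lacked the GC box GGGCGG, which 35.7% of all windows and 64.8% of the windows of genes with first-intron peaks held. Their base composition was also low in G and C, at 43% for Bcl11b and 45.7% for Il7r, where the median window of genes with first-intron peaks had 63% and that of all genes 52.7%. Genes with a peak at the transcription start site (TSS) and no first-intron peak had a median of 60%, and 60.4% of their windows held GGGCGG. A window was found by symbol for 2126 of the 2776 genes. The TSS peak of Bcl11b held 13.95 ± 2.74 CPM (reads scaled to the same total of reads in peaks for each library) in Stat6 KO, 17.6 ± 8.40 in Il21e KO and 16.1 ± 3.63 in WT (SD, n = 3 each). That of Il7r held 13.6 ± 3.45 CPM in Stat6 KO, 13.3 ± 3.57 in Il21e KO and 15.4 ± 2.87 in WT, so at both promoters the group means differed by less than the widest SD.

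First-intron peaks were modest in height. Their median level over all 9 libraries was 8.52 CPM per kb of peak, against 21.6 at TSS peaks, 8.26 between genes, 8.21 under the 5' UTR label and 6.34 in later introns. Summed over each class, the level per kb was higher in first introns than in later introns in 9 of 9 libraries, by a mean ratio of 1.19 (exact 2-sided sign-flip test over libraries, p = 0.00391, the smallest it can give). Against the UTR class the mean ratio was 1.00, with 4 of 9 libraries higher (exact sign-flip p = 0.570). Against intergenic peaks it was 1.03, with 9 of 9 libraries higher (exact sign-flip p = 0.00391). Adjusted over these 3 comparisons by Benjamini-Hochberg, the exact sign-flip p values were 0.00586, 0.570 and 0.00586. All 9 libraries share 1 set of peaks, so these tests measure how repeatable the ratio was over libraries, not the spread between peaks or genes.

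The level depended on where in the intron a peak lay. The 916 peaks between 2 and 5 kb from the start had a median of 13.8 CPM per kb, where the 1153 peaks closer in had 8.24 and the bins between 5 and 100 kb had 7.89 to 8.21. The 411 peaks beyond 100 kb had 6.55. Of the peaks within 2 kb, 130 touched a TSS peak, and without those the median was 9.13 CPM per kb. Later introns showed the same maximum, with 11.5 CPM per kb for their 522 peaks at 2 to 5 kb and 6.00 to 6.61 for the bins beyond 5 kb. In every one of the 9 libraries the first-intron median at 2 to 5 kb lay between 8.41 and 14.7 CPM per kb.

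**Figure D1:**
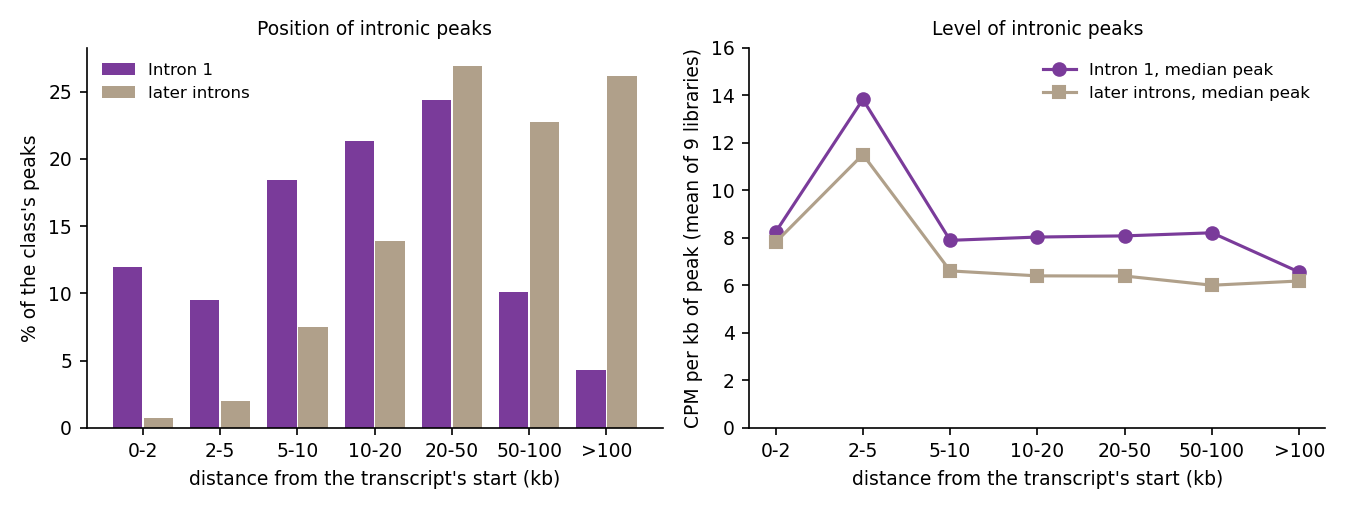
Intronic peaks by distance from the transcript's start (x axis, kb): share of each class's peaks (left, bars) and median CPM per kb of peak, averaged over 9 libraries (right, lines), for Intron 1 and later introns. First-intron peaks gather closer to the start, and both classes have their highest median at 2 to 5 kb, 13.8 CPM per kb in Intron 1 and 11.5 in later introns.

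Many genes carried several first-intron peaks. Of 2776 genes, 1231 (44.3%) had 1 peak, while the 1545 genes with 2 or more held 87.2% of the peaks. The 211 genes with 10 or more, 7.60% of the genes, held 36.3% of the peaks and 41.1% of the first-intron CPM. Neighbouring peaks of a gene lay a median of 2636 bases apart where they did not touch, and 662 of 6845 such gaps were 0. Genes with more peaks had longer transcripts, with a median of 27.6 kb for genes with 1 peak and 129 kb for genes with 10 or more (Spearman's rank correlation 0.43 across 2776 genes, which are not independent replicates). A TSS peak was listed for 91.9% of the genes with 10 or more first-intron peaks and 77.4% of those with 1. The CPM summed over all TSS peaks of a gene, 0 where it had none, had a median of 41.6 at genes with 10 or more and 22.2 at genes with 1. The sum of first-intron CPM and the sum of TSS CPM of a gene were weakly related (rank correlation 0.26 across the 2334 genes with a TSS peak). The peaks of rich introns were not only more numerous: the median peak held 7.91 CPM per kb at genes with 1 peak and 10.7 CPM per kb at the 45 genes with 21 or more.

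The 10 genes with most first-intron peaks included several that T cells depend on. Bcl2, which blocks cell death, had 60 peaks spread over 6.75 to 169 kb from its start (transcript at chr1:108434753-108610868 in mm9, minus strand). Its summed first-intron signal was 469, 474 and 506 CPM in Stat6 KO, 429, 474 and 494 CPM in Il21e KO and 421, 444 and 458 CPM in WT. All Stat6 KO sums lay above all WT sums, and the Il21e KO sums overlapped both. The difference between Stat6 KO and WT was 0.13 ± 0.05 on the log2 scale (limma, adjusted p = 1).

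Bcl11b had 46 peaks between 0.971 and 84.2 kb and 20.2 CPM per kb of peak. Its sums were 361, 389.8 and 390.2 CPM in Stat6 KO, 445, 401 and 399 CPM in Il21e KO and 398, 420.4 and 368 CPM in WT. The WT range overlapped both knockouts. Its strongest peak, 25.1 kb from the start, carried 9.60% of the gene's first-intron CPM and averaged 36.9 ± 9.08 CPM in Stat6 KO, 38 ± 4.75 in Il21e KO and 39.4 ± 1.82 in WT (SD, n = 3 each).

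Foxo1, the forkhead factor that keeps naive T cells quiescent and maintains Il7r, had 36 peaks and 16.7 CPM per kb of peak. Its strongest peak stood at the far end of the set, 74.7 kb from the start, with 39.5 ± 3.34 CPM in Stat6 KO, 37.4 ± 3.53 in Il21e KO and 35.4 ± 5.34 in WT. The Foxo1 sums were 264, 268 and 265 CPM in Stat6 KO, 213, 255 and 245 CPM in Il21e KO and 243, 228 and 233 CPM in WT. Every Stat6 KO sum exceeded every WT sum, by 0.18 ± 0.07 on the log2 scale, and the difference did not pass (limma, adjusted p = 1).

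Tox, an HMG-box factor of T cell development, had 35 peaks whose sums ran lower in both knockouts. They were 276, 253 and 258 CPM in Stat6 KO, 261, 261 and 260 CPM in Il21e KO and 278, 283 and 302 CPM in WT. Neither knockout overlapped WT, and neither difference passed: -0.13 ± 0.06 for Stat6 KO and -0.14 ± 0.06 for Il21e KO (limma, adjusted p = 1 for both).

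Rora, a nuclear receptor gene, had 39 peaks reaching 520 kb into its intron, the widest spread of the 10. Its sums were 284, 280 and 263 CPM in Stat6 KO, 214, 259 and 267 CPM in Il21e KO and 272, 279.5 and 304 CPM in WT. The Il21e KO sums lay below those of WT without overlap (-0.21 ± 0.08, limma, adjusted p = 1), the lowest being library 1. The other members of the 10 were Ext1 (41 peaks), which builds heparan sulfate chains, Cmip (41), the lipid transfer gene Pitpnc1 (37) and Abtb2 (35). Between Stat6 KO and WT the sums of these 4 differed by -0.03 to 0.09 on the log2 scale.

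Zfp982, a zinc-finger gene, had most peaks of all, 66, but they were unlike the rest. Only 3 of the 66 passed the filter on low counts, the signal was 5.15 CPM per kb of peak where the other 9 genes had 13.7 to 20.2, and the gene had no TSS peak. It belongs to a family of near-identical genes, so its reads may have been split among copies and its values are uncertain.

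**Figure D2:**
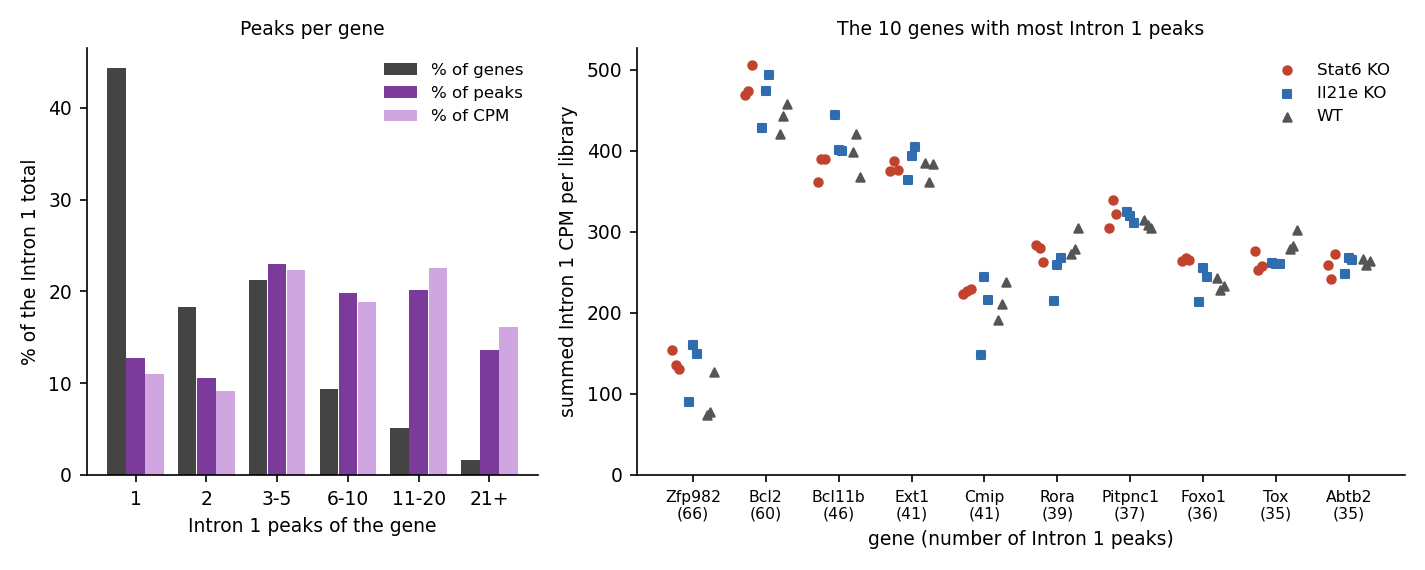
Left, share of Intron 1 genes, peaks and CPM (y axis, %) by the number of Intron 1 peaks per gene. Right, summed Intron 1 CPM in each library (points) for the 10 genes with most peaks, Stat6 KO as circles, Il21e KO as squares and WT as triangles. The groups lie close together at most genes. Il21e KO 1 gives the lowest point at Cmip (149 CPM), Rora (214 CPM) and Foxo1 (213 CPM) and the highest at Bcl11b (445 CPM).

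**Figure D3:**
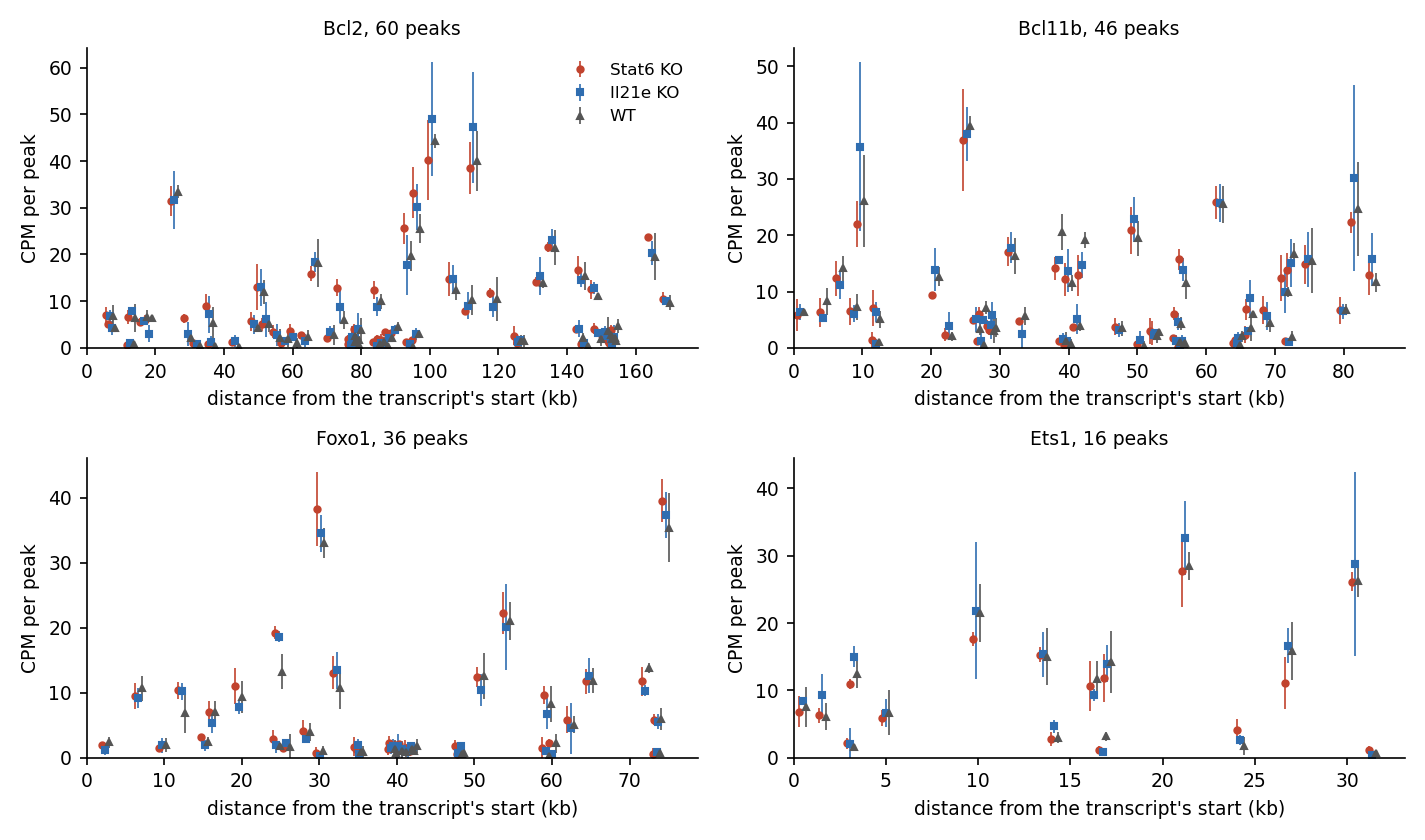
CPM of every Intron 1 peak (mean ± SD over 3 libraries) against its distance from the transcript's start (kb) for Bcl2, Bcl11b, Foxo1 and Ets1, with genotypes offset sideways. A few tall peaks stand among many low ones, such as the Ets1 peak 21.2 kb from the start, which averaged 27.8 CPM in Stat6 KO, 32.6 in Il21e KO and 28.5 in WT.

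Lists of genes with known roles in T cells were read for peaks with the Intron 1 label. Genes without it may have peaks under the 5' UTR label, as had Fyn (42) and Jak1 (33). The counts describe the lists and were not set against a share over all genes. Among 25 transcription factors of naive T cells, 9 had 182 first-intron peaks, led by Bcl11b, Tox and Foxo1. The ETS factor genes Fli1 and Ets1 had 21 and 16, and the zinc-finger repressor gene Zeb1 had 19. Of 26 genes of the T cell receptor and its proximal signals, 9 had 71 peaks. They included the phosphatase gene Ptprc (CD45) with 17 peaks and 195 CPM in all, Cd6 with 16 and the costimulatory receptor gene Cd28 with 10 and 85.2 CPM. Among 27 cytokine and JAK-STAT genes, 7 had 66 peaks, most of them at the TGF-beta pathway genes Smad3 (29 peaks, 290.1 CPM) and Tgfbr2 (19 peaks, 213 CPM). Il2ra, the alpha chain of the IL-2 receptor, had 8 peaks with 96.7 CPM. Of 15 homing and survival receptors, 5 had 76 peaks, 60 of them at Bcl2 and 7, with 91.9 CPM, at the IL-6 receptor gene Il6ra. Of 24 genes of effector helper fates, 8 had 52 peaks, 39 of them at Rora. The chemokine receptor gene Cxcr5 had 2 with 58.3 CPM, and the costimulator gene Icos had 4 with 55.1 CPM. Of 18 ubiquitous genes, 4 had 6 peaks, with 26.6 CPM in all.

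The labelled cell type was set against marker genes. The T cell markers with the label, 4 of 12 listed and Bcl11b, Cd5 and Cd3g among them, had 66 first-intron peaks with a summed level of 517 to 565 CPM in Stat6 KO, 536 to 607 CPM in Il21e KO and 514 to 572 CPM in WT. Of the 8 B cell, 8 myeloid, 6 erythroid and 2 CD8 markers, none had a first-intron peak, and of 6 NK cell markers only Klrb1c had 1, at 0.731 CPM. Few genes of these short lists have the label, so this is a weak check. At TSS peaks the 12 T cell markers summed to 306 to 490 CPM per library. The sums of the other lists there were lower but above 0, at 21.9 to 54.8 CPM for B cell, 55.3 to 93.2 for myeloid, 28.6 to 56.1 for NK cell, 11.4 to 25.1 for erythroid and 30.03 to 40.5 for CD8 markers. The myeloid sum came mostly from Cd14 (37.7 CPM) and Cebpa (29.4 CPM), while Lyz2, S100a8, Mpo and Csf1r had no TSS peak. The CD8 sum was that of Cd8b1 alone (35.1 CPM), above the 8.51 CPM of Cd4, and Cd8a had no TSS peak. The part of other cells in the results was not tested. Stat6 itself had no first-intron peak. Its peak at coding exon 12 held 2.84, 1.77 and 1.84 CPM in Stat6 KO, 4.76, 9.45 and 7.21 CPM in Il21e KO and 6.73, 7.01 and 12.3 CPM in WT, so that the 3 Stat6 KO libraries were the lowest. Its peak at coding exon 16 went the other way, with 23.3, 19.4 and 15.3 CPM in Stat6 KO, 1.91, 6.93 and 7.77 CPM in Il21e KO and 5.51, 9.34 and 10.96 CPM in WT. Its TSS peak overlapped, with 64.2, 63.0 and 68.5 CPM in Stat6 KO, 71.5, 68.1 and 62.7 CPM in Il21e KO and 83.8, 71.6 and 56.7 CPM in WT. Since the labels do not say which DNA was removed, these values do not settle the label, and Il21 had no first-intron peak either.

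The libraries held 1049460 to 1802405 reads in peaks, so that 1 read was worth 0.555 to 0.953 CPM and a count of 3 reads 1.66 to 2.86 CPM; such intervals cover counting error only. Il21e KO 1 stood apart. It had the fewest reads, no read in 23.5% of first-intron peaks where the other 8 libraries had none in 3.35% to 11.6%, and 42.7% of its reads in TSS peaks where the others had 31.6% to 36.4%. Chi-square per degree of freedom between the reads of pairs without Il21e KO 1 was 0.733 to 1.06 within a genotype and 0.778 to 1.15 between genotypes. The pairs of WT 3 with WT 1 and WT 2 had 1.06 and 1.03, and the other 5 pairs of 1 genotype had 0.733 to 0.785. Most pairs between genotypes, which are different samples, also lay below 1, so these values cannot tell technical replicates from separate samples. That every library was a sample of its own was assumed. Pairs with Il21e KO 1 had 1.73 to 2.90.

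The comparison of genotypes asked whether loss of Stat6 or of Il21e alters the openness of first introns. As a share of each library's reads, first introns took 6.65%, 6.56% and 6.60% in Stat6 KO, 5.67%, 6.49% and 6.50% in Il21e KO and 6.22%, 6.27% and 6.59% in WT. Stat6 KO overlapped WT (exact permutation p = 0.2) and so did Il21e KO (p = 0.8). Stat6 KO did not overlap Il21e KO, and their means differed by 0.386 percentage points (exact permutation p = 0.1). With 3 libraries against 3, the smallest p that can be reached is 0.1. Without Il21e KO 1 that difference was 0.110 percentage points.

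The share moved opposite to that of TSS peaks, as shares of the same total tend to. It was therefore also taken over the reads outside TSS peaks. Which class changed was not tested. Outside TSS peaks, first introns took 9.65% to 9.90% of the reads in every library. Stat6 KO then averaged 9.80% ± 0.0737, Il21e KO 9.74% ± 0.133 and WT 9.75% ± 0.0256 (SD, n = 3 each), with exact permutation p of 0.4 for Stat6 KO against WT, 1 for Il21e KO against WT and 0.6 for Stat6 KO against Il21e KO. Of the reads in all introns, first introns took 30.8% ± 0.214 in Stat6 KO, 31.2% ± 0.922 in Il21e KO and 31.0% ± 0.388 in WT (exact permutation p of 0.6 for Stat6 KO and 0.8 for Il21e KO, each against WT, and 0.8 between the knockouts). Over these 3 measures 9 tests were made, and their p values adjusted by Benjamini-Hochberg were 0.9 or above for the exact permutation tests.

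**Figure D4:**
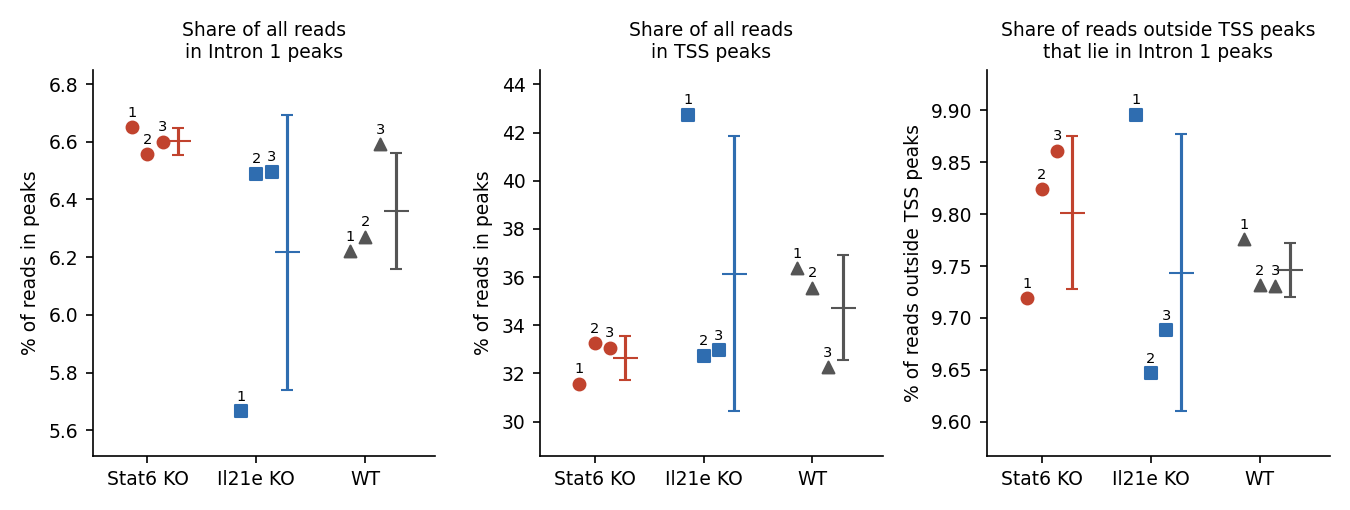
Share of reads (y axes, %) in Intron 1 peaks, in TSS peaks, and in Intron 1 among reads outside TSS peaks, for each library (points, numbered by replicate) with the mean ± SD of each genotype at its side. Il21e KO 1 is lowest in the left panel (5.67%) and highest in the middle one (42.7%), and all libraries lie between 9.65% and 9.90% on the right.

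Peak by peak, 3596 of the 9621 first-intron peaks (37.4%) had enough reads to be tested, and they held 81.3% of the first-intron CPM and named 1540 genes. In a limma fit over all 48287 testable peaks of the table, no first-intron peak passed an adjusted p of 0.05 in any comparison. The share of all tested peaks called was 0.0104 percent for Stat6 KO against WT, 0 for Il21e KO against WT and 0.0104 for Stat6 KO against Il21e KO. edgeR's quasi-likelihood test and DESeq2 also called 0 first-intron peaks in each. At an unadjusted p under 0.05, limma had 139 first-intron peaks for Stat6 KO against WT (3.87%, where all tested peaks had 3.29 percent), 158 for Il21e KO against WT (4.39%, with 3.52 for all) and 190 for Stat6 KO against Il21e KO (5.28%, with 5.68 for all). Of the 139, 86 were higher and 53 lower in Stat6 KO, or 2.39% and 1.47% of the first-intron peaks, beside 1.68 and 1.62 percent of all tested peaks. Of the 158, 38 were higher and 120 lower in Il21e KO, or 1.06% and 3.34%, beside 1.1 and 2.41 percent of all. Of the 190, 141 were higher and 49 lower in Stat6 KO than in Il21e KO, or 3.92% and 1.36%, beside 3.31 and 2.38 percent of all. At this unadjusted level edgeR had 113 higher and 50 lower for Stat6 KO against WT, and DESeq2 had 36 and 11. For Il21e KO against WT edgeR had 52 and 42, and DESeq2 14 and 7. For Stat6 KO against Il21e KO edgeR had 95 and 60, and DESeq2 30 and 23.

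The median first-intron change was 0.04 for Stat6 KO against WT, -0.06 for Il21e KO against WT and 0.12 for Stat6 KO against Il21e KO on the log2 scale. The medians of all tested peaks were 0.00, -0.03 and 0.04, and those of TSS peaks were -0.08, 0.03 and -0.12. Later introns, at 0.03, -0.06 and 0.11, had nearly the same medians. Without Il21e KO 1, the first-intron medians were 0.04, 0.02 and 0.02. First-intron peaks whose 3 Stat6 KO values all lay above all WT values numbered 287 (7.98%, with 6.31 percent of all tested peaks), and those below numbered 201 (5.59%, with 6.89 of all). For Il21e KO against WT they were 101 above (2.81%, with 2.84 of all) and 190 below (5.28%, with 4.44 of all). For Stat6 KO against Il21e KO they were 323 above (8.98%, with 6.45 of all) and 110 below (3.06%, with 4.59 of all).

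The balance of higher and lower peaks differed between settings. Of first-intron peaks with an unadjusted p under 0.05, 24.1% were higher in Il21e KO than in WT, but 38.2% with TMM factors, 55.3% in edgeR and 66.7% in DESeq2. The edgeR and DESeq2 values change the model as well as the scaling. For Stat6 KO against WT the share higher was 61.9%, and 69.4%, 69.3% and 76.6% under those 3 settings. For Stat6 KO against Il21e KO it was 74.2%, and 68.7%, 61.3% and 56.6%.

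Leaving out single libraries also moved these counts. The balance of Il21e KO against WT turned without Il21e KO 1, with 129 first-intron peaks higher and 102 lower (55.8% higher, with 45.8% among all tested peaks). With that library left out, Stat6 KO against WT had 194 higher and 126 lower, and Stat6 KO against Il21e KO had 82 and 58. Without WT 3, Il21e KO against WT had 62 higher and 65 lower. Without Il21e KO 2 it had 41 and 228, and without Il21e KO 3 it had 49 and 242, while Stat6 KO against Il21e KO then had 292 and 94, and 307 and 84. Leaving out a Stat6 KO library gave 51 and 29, 57 and 40, or 60 and 33 for Stat6 KO against WT (without Stat6 KO 1, 2 and 3 in turn), and 69 and 34, 89 and 43, or 82 and 33 for Stat6 KO against Il21e KO. Over the 9 libraries left out in turn, the share higher was 58.8% to 72% for Stat6 KO against WT, 15.2% to 55.8% for Il21e KO against WT and 58.6% to 78.5% for Stat6 KO against Il21e KO.

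No tested first-intron peak of the T cell lists was called in any comparison, and their medians did not all share the sign of the first-intron median. Over the tested first-intron peaks, transcription factors of naive T cells (89 peaks) had a median log2 difference of -0.02 for Stat6 KO and -0.04 for Il21e KO, both against WT, beside 0.00 and -0.03 over all tested peaks. Homing and survival receptors (35 peaks) had 0.11 and 0.07, T cell receptor signalling (36 peaks) -0.02 and 0.00, and cytokine and JAK-STAT genes (37 peaks) 0.01 and 0.01. Effector fate genes (24 peaks) had 0.03 for Stat6 KO and -0.17 for Il21e KO.

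No single peak passed, and the first ones given here are peaks that differed between Stat6 KO and WT. Il7r, on chromosome 15, had its main first-intron peak at 9457665 to 9458734 (mm9), 898 bases from the start. It held 21, 18.3 and 14.7 CPM in Stat6 KO, 43.8, 23.3 and 19.97 CPM in Il21e KO and 41.0, 34.3 and 31.0 CPM in WT. All Stat6 KO values lay below all WT values, and Il21e KO spanned both, its high value being library 1. The difference between Stat6 KO and WT was -0.94 ± 0.25 on the log2 scale (limma, adjusted p = 1, and 0.00256 without Il21e KO 1). The other tested peak of this intron, 2.30 kb from the start, held 10.6 ± 1.18 CPM in Stat6 KO, 10.2 ± 4.45 in Il21e KO and 10.1 ± 2.67 in WT.

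Tom1l2, an endosomal sorting gene, had a peak on chromosome 11 at 60163209 to 60163660 (mm9) with 14, 20 and 22 reads in Stat6 KO, 3, 16 and 2 in Il21e KO and 2, 0 and 3 in WT. Stat6 KO lay above WT (2.66 ± 0.62, limma, adjusted p = 1, and 0.0033 without Il21e KO 1), while Il21e KO 2 fell inside the Stat6 KO range. Nmnat2, which makes the cofactor NAD, had a peak 82555 bases from its start with 15, 21 and 21 reads in Stat6 KO, 5, 16 and 17 in Il21e KO and 5, 4 and 8 in WT. Here the values of Il21e KO 2 and 3 also lay above all of WT, and the Stat6 KO difference was 1.37 ± 0.33 (limma, adjusted p = 1, and 0.0168 without Il21e KO 1). Gm21949, a predicted gene named after its values were seen, had 22, 16 and 12 reads in Stat6 KO, 2, 2 and 5 in Il21e KO and 2, 3 and 1 in WT (2.20 ± 0.55 against WT, limma, adjusted p = 1, and 0.0225 without Il21e KO 1). The peaks of Tom1l2, Nmnat2 and Gm21949 passed the filter on low counts only with their Stat6 KO reads, the group where they are high. Their differences are therefore no independent support.

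Without Il21e KO 1, 5 of the 3596 tested first-intron peaks passed in Stat6 KO against WT, those of Gm21949, Il7r, Nmnat2 and Tom1l2 among them. Of all 48287 tested peaks 61 passed (0.126 percent), a similar share. The same 5 passed when only the 2 genotypes were fitted, beside 38 of all tested peaks (0.0787 percent). For the other comparisons no first-intron peak passed under these settings. Without Il21e KO 1 the share of all tested peaks called was 0.00414 percent for Il21e KO against WT and 0.0352 for Stat6 KO against Il21e KO, and with 2 genotypes fitted it was 0 and 0.0124. In edgeR the adjusted p of the named peaks ran from 0.0727 at Gm21949 to 0.778 at Il7r. In DESeq2 the adjusted p was 0.159 at Tom1l2 and 0.99998 at Il7r and Nmnat2. Il21e KO 1 is in neither group of the comparison of Stat6 KO with WT and enters only through the shared estimate of the spread. A fold on the log2(CPM + 1) scale understates the change of peaks with few reads.

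Further peaks with the smallest p for Stat6 KO against WT stood apart without passing (limma, adjusted p = 1). Those higher in Stat6 KO included Rras2, a Ras-related GTPase gene (23.3 ± 2.96 CPM, with 15.95 ± 3.13 in Il21e KO and 13.2 ± 2.03 in WT), Tnfaip8 (0.68 ± 0.18 on the log2 scale) and the kinase gene Wnk1 (1.28 ± 0.37). The Wnk1 peak, too, passed the filter only with its Stat6 KO reads. Those lower included Ppp2r5c, a regulatory subunit of the phosphatase PP2A, with 28.7 ± 1.19 CPM in Stat6 KO, 30.5 ± 1.84 in Il21e KO and 41.6 ± 3.17 in WT. Vps37b, an ESCRT-I subunit gene, was also lower (-0.73 ± 0.22), as was the adhesion gene Nrxn3 (-0.98 ± 0.30). Il21e KO also lay apart from WT, in the same direction, at Tnfaip8, Wnk1, Ppp2r5c and Nrxn3. It overlapped WT at Rras2 and Vps37b.

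Dock10, a guanine nucleotide exchange factor, was lower in Stat6 KO than in both other genotypes. Its peak 29795 bases from the start held 7.39, 10.01 and 7.95 CPM in Stat6 KO, 20.01, 16.4 and 14.98 CPM in Il21e KO and 13.5, 17.1 and 14.8 CPM in WT. The difference was -0.78 ± 0.22 against WT (limma, adjusted p = 1) and -0.94 ± 0.22 against Il21e KO (limma, adjusted p = 0.780). It passed under none of the 17 alternatives, with a lowest adjusted p of 0.115 against WT.

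**Figure D5:**
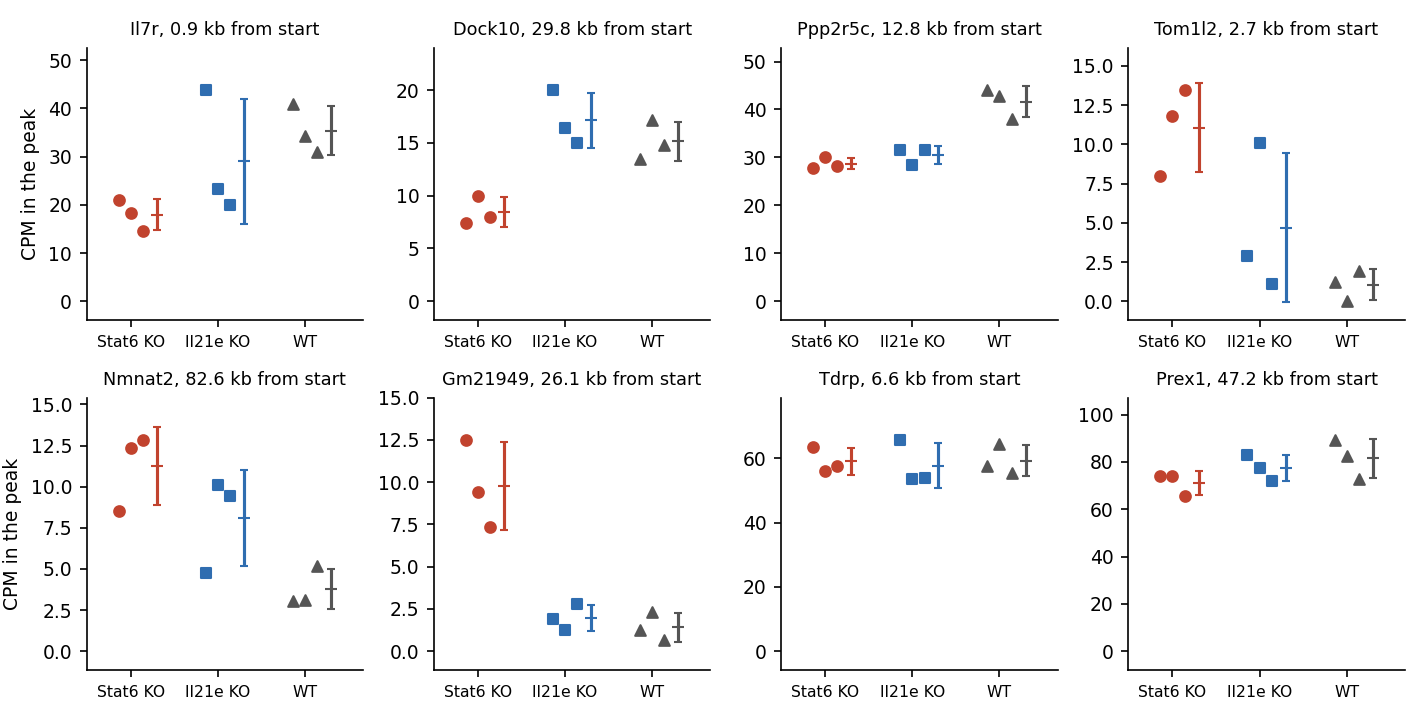
CPM in single Intron 1 peaks (points are libraries, crossbars mean ± SD, n = 3), Stat6 KO left, Il21e KO in the middle and WT right; axes are linear and extend just below 0. Il7r, Dock10 and Ppp2r5c are lower in Stat6 KO than in WT, Tom1l2, Nmnat2 and Gm21949 are higher, and the tall peaks of Tdrp (59.0 CPM in Stat6 KO) and Prex1 (71.2 CPM) overlap WT.

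For Il21e KO against WT, the peaks with the smallest p were likewise all short of the threshold (limma, adjusted p = 1.00, lowest over all first-intron peaks). Cyth1, an exchange factor for ARF GTPases, held 34.3, 29.6 and 31.1 CPM in Il21e KO and 22.6, 21.02 and 20.6 CPM in WT, with no overlap (0.54 ± 0.17). Stat6 KO, with 27.8, 31.8 and 26.3 CPM, also lay above WT. A peak of Zfp982 held 7, 12 and 13 reads in Il21e KO and 1, 0 and 1 in WT (2.56 ± 0.73), subject to the doubt on its reads above. Arid3b, Sec11a and Dnajc3 were the others on this side, with 1.35, 0.61 and 0.67 on the log2 scale. The peaks of Zfp982 and Arid3b passed the filter on low counts only with their Il21e KO reads, the group where they are high. Atf6, a transcription factor of the unfolded protein response, held 11.4, 15.1 and 12.8 CPM in Il21e KO and 19.6, 26.5 and 19.99 CPM in WT, again without overlap (-0.70 ± 0.20). Stat6 KO, with 15.9, 14.1 and 15.9 CPM, also lay below WT. Ninj2, Ergic1, Maml3 and Galnt2 had differences of -1.19, -0.67, -0.81 and -1.35. The peaks of Ninj2 and Galnt2 passed the filter on low counts only with their WT reads, the group where they are highest. Stat6 KO also lay apart from WT, in the same direction, at Arid3b, Ninj2 and Ergic1. It overlapped WT at Zfp982, Sec11a, Dnajc3, Maml3 and Galnt2.

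Between the knockouts, the smallest p on the higher side lay at Mcu, the pore of the mitochondrial calcium uniporter, with 15.3, 14.7 and 14.1 CPM in Stat6 KO and 3.81, 9.45 and 8.32 CPM in Il21e KO (1.02 ± 0.27, limma, adjusted p = 0.780). A Rora peak 418332 bases into its gene held 10.2, 11.2 and 11.6 CPM in Stat6 KO and 3.81, 5.04 and 6.66 CPM in Il21e KO (0.99 ± 0.27, limma, adjusted p = 0.780). Ahcyl1 and Evi5 differed by 1.22 and 0.63 in the same direction, and Smap2, Eef2kmt, Map3k4 and Fli1 by -0.75, -0.67, -0.53 and -0.90. At none of these 6 did the knockouts overlap. At Mcu, Rora, Ahcyl1 and Evi5 the lowest Il21e KO value was that of library 1, and at Smap2 and Map3k4 the highest was.

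Summing the peaks of a gene's first intron gave 1718 testable sums, and again none passed in limma (adjusted over 23273 sums of gene and annotation class, of which 0 percent passed in each comparison). At an unadjusted p under 0.05 there were 67 for Stat6 KO against WT, 52 of them higher, 64 for Il21e KO against WT, 20 higher, and 123 for Stat6 KO against Il21e KO, 113 higher. These are 3.90%, 3.73% and 7.16% of the sums, where all sums had 3.34, 2.69 and 5.68 percent. When Il21e KO 1 was left out, the sums at this level were 169 higher and 46 lower for Stat6 KO against WT, 86 and 41 for Il21e KO against WT, where the balance turned, and 54 and 30 for Stat6 KO against Il21e KO. Without Il21e KO 2 or 3, Il21e KO against WT had 13 and 116 or 15 and 113, and Stat6 KO against Il21e KO had 241 and 14 or 231 and 25. Over all 9 libraries left out in turn, the share of these sums that was higher was 75% to 86.05% for Stat6 KO against WT, 10.1% to 67.7% for Il21e KO against WT (51.1% without WT 3) and 64.3% to 94.5% for Stat6 KO against Il21e KO. The median sum with all libraries differed by 0.07, -0.06 and 0.15, with -0.01, -0.01 and 0.00 for all sums. DESeq2 also called 0 in each, and edgeR called 1 for Stat6 KO against WT and 0 in the others.

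The clearest sum was that of Jmy, an actin nucleator and cofactor of p53, whose 9 peaks (the gene lies on chromosome 13) each held too few reads to be tested alone. Together they held 33.0, 27.1 and 22.6 CPM in Stat6 KO, 14.3, 20.2 and 16.6 CPM in Il21e KO and 12.2, 7.79 and 8.38 CPM in WT. The 3 genotypes did not overlap, with Il21e KO between the others. Stat6 KO exceeded WT by 1.46 ± 0.24 (limma, adjusted p = 0.188, and 5.6e-05 without Il21e KO 1, with 0.0723 in edgeR), and Il21e KO exceeded WT by 0.80 ± 0.24 (limma, adjusted p = 1.00). The sum of the 3 Gm21949 peaks was 17.0, 14.1 and 12.8 CPM in Stat6 KO, 1.91, 3.15 and 3.88 CPM in Il21e KO and 1.22, 3.89 and 1.29 CPM in WT. It differed by 2.42 ± 0.41 between Stat6 KO and WT (limma, adjusted p = 0.188) and was the 1 sum that edgeR called (adjusted p = 0.0204). This sum, too, passed the filter only with its Stat6 KO reads.

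Other sums with small p had the following values. Ube4b, a ubiquitin ligase gene with 7 peaks, had 30.3 ± 3.38 CPM in Stat6 KO, 19.1 ± 2.15 in Il21e KO and 17.6 ± 2.57 in WT (0.75 ± 0.20 against WT, limma, adjusted p = 1). Nrxn3, with 3 peaks, was low in both knockouts, at 10.4 ± 1.43 CPM in Stat6 KO, 10.4 ± 3.49 in Il21e KO and 20.2 ± 2.41 in WT, with no overlap between either knockout and WT. Trib2, a pseudokinase gene, had 22.3 ± 5.04 CPM in Stat6 KO, 24.4 ± 2.50 in Il21e KO and 34.2 ± 2.50 in WT, and Spata13 had 57.1 ± 8.14 CPM in Stat6 KO, 63.8 ± 8.38 in Il21e KO and 75.01 ± 4.01 in WT. For Il21e KO against WT, the sums of Lman1l and Dock4 differed by 0.75 and 0.28, and those of Ksr2 and Ndfip1 by -0.82 and -0.70 (limma, adjusted p = 1.00 for each). Without Il21e KO 1, 7 of the 1718 first-intron sums passed for Stat6 KO against WT (Gm21949, Il7r, Jmy, Nmnat2, Nrxn3, Ube4b and Zfp982). Of all 23273 sums 81 passed (0.348 percent). For Il21e KO against WT 2 first-intron sums passed (Nmnat2 and Zfp982), beside 10 of all sums (0.043 percent). Between the knockouts none passed, and the smallest p values lay at the sums of Rab4a, Osbpl9 and Abi1, with differences of 1.03, 0.95 and 0.53, and of Vps37b, Ramp1 and Cobll1, with -0.28, -0.34 and -0.30 (limma, adjusted p = 0.732 for each).

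None of the 10 tallest first-intron peaks per kb passed. Tdrp, with the highest density at 47.0 CPM per kb, held 63.6, 55.9 and 57.5 CPM in Stat6 KO, 65.7, 53.6 and 53.8 CPM in Il21e KO and 57.5, 64.6 and 55.5 CPM in WT, so all groups overlapped. Zc3hav1, an antiviral zinc-finger gene, had 39.5 CPM per kb, and Aff1, Prkch, Prex1, Macf1, Ppm1h, Ttc39b, Qprt and Gramd4 had 35.2 to 38.3. Over these 10 peaks the difference between Stat6 KO and WT ran from -0.29 to 0.04 and that between Il21e KO and WT from -0.09 to 0.16 on the log2 scale, and no peak stood apart from WT in either knockout. They lay 5639 to 112106 bases from their transcripts' starts.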

How the data were processed

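The 9 ATAC-seq libraries were processed by the submitters with Bowtie 1.3.0, MACS2 2.0 and HOMER on mm9, per the submitters' processing notes. The authors deposited 1 table for the series with each peak's position, annotation and CPM per library, per the file headers, whose names are shifted against the columns. All CPM values were whole multiples of 1 read within 0.01 reads, so reads were recovered for 100% of values. The members and gene lists were chosen with earlier results of these data known. Peaks with enough reads (edgeR filterByExpr, minimum count 10 and total 15) were compared as log2(CPM + 1) in 1 limma-trend fit over all 9 libraries (R 4.3.3, limma 3.58.1), with Benjamini-Hochberg adjustment over 48287 peaks; errors beside log2 differences are standard errors. 67440 peaks were left out of that test. Sums per gene and annotation class were fitted alike. Shares of reads and class levels were compared by exact permutation and sign-flip tests. The reads were tested with edgeR 4.0.16 and DESeq2 1.42.0 as alternatives. The fit was also run on simulated data with large changes set in, which does not measure its power for small ones. Named peaks are 5 per direction and comparison by smallest p and the 10 highest per kb (300 bases or longer), and named genes the 10 with most peaks, 3 per direction by smallest p of sums (3 or more peaks) and the leading members of each list; predicted genes were left out, and others are said to be named after their values were seen. Motifs were searched by exact match on both strands. The peaks' own sequence on mm9 was not used here. The values of 1 gene that the naming rule picked are not reported here.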

Additional observations from a re-analysis of the deposited data

How the results depend on the processing

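Counts of called first-intron peaks stayed at 0 under the alternatives run (other tests, pseudocounts of 0.25 and 5, TMM scaling, no filter, 2 groups only, 9 libraries left out in turn), except 5 for Stat6 KO against WT with 2 groups only, 0 to 5 there on leaving out a library, and 1 for Stat6 KO against Il21e KO with no filter. Called sums for Stat6 KO against WT were 1 in edgeR, 6 with 2 groups only and 0 to 7 on leaving out a library, and 0 to 2 for Il21e KO against WT; the highest counts came without Il21e KO 1. Counting 5' UTR peaks with Intron 1 gave 3178 genes with 2 or more. On leaving out a library, the share of reads differed by 0.171 to 0.357 percentage points for Stat6 KO against WT, -0.284 to 0.131 for Il21e KO against WT (0.131 without Il21e KO 1) and 0.110 to 0.525 between the knockouts. The share of intronic reads differed by -0.381 to -0.0231, -0.309 to 0.518 (-0.309 without Il21e KO 1, -3.41e-05 without WT 3) and -0.677 to 0.150 (0.150 without Il21e KO 1). The cause was not tested. Of the alternative values for named peaks, 638 kept direction and side of the threshold and 8 newly passed.

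Replicate numbers did not pair the libraries: deviations of same-numbered libraries correlated from -0.19 to 0.25. With the number as a replicate block, 0 first-intron peaks and 0 sums were called in each comparison, and the share differences of 0.241, -0.144 and 0.386 had exact sign-flip p of 0.25, 0.75 and 0.25. Depth limits these results: 6025 of 9621 first-intron peaks held too few reads to test.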
